A study of Penicillium oxalicum with 9 samples.

Results

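In *P. oxalicum*, 238 of 9721 listed genes (2.45%) were higher without *rsrB* than in the parental strain while their level without *rsrA* stayed near the parental one. They were chosen on log2(FPKM + 1), where FPKM scales fragments by the length of the transcript and by how many fragments mapped. The differences used were A for Δ*rsrA* minus Δ*ku70* and B for Δ*rsrB* minus Δ*ku70*, each between means over 3 libraries. A gene was taken where B was at least 0.8, the size of A was under 0.5, every Δ*rsrB* value was above every Δ*ku70* value, and the Δ*ku70* values spanned no more than 1.5. The values of all 9 libraries therefore chose the members, and the differences between strains given below describe that choice and were not tested as findings.

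The study compared 3 strains, with 3 libraries each. The parental strain Δ*ku70* lacks *ku70*, a gene of non-homologous end joining, and the labels call its genotype WT. Δ*rsrA* (POX01907 deleted) and Δ*rsrB* (POX08340 deleted) were made in it, so every strain lacks *ku70*. Mycelium was grown for 24 h with glucose and for 24 h in an enzyme-inducing medium, whose carbon source is raw starch or Avicel (a cellulose) in different labels and corn starch in the paper. The paper calls the libraries of a strain biological replicates and describes several independent transformants of each mutant for its enzyme assays. The labels do not say which transformant or culture a library came from.

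RsrB is a transcription factor with a Zn2Cys6 zinc finger, a DNA-binding fold found mainly in fungi, and RsrA carries SANT-like domains. Both act on the production of starch-degrading enzymes in this fungus. In filamentous fungi the genes of one pathway, above all of secondary metabolism, often lie side by side on a chromosome and are switched on together. The files name genes only by identifiers of the form POX08108, which no table at hand pairs with gene names, so no function is given for any member, and the sequences of the members were not analysed here.

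The deleted genes checked the labels. POX08340, taken as *rsrB* from the labels, was at an FPKM of 30.6, 35.7 and 30.6 in Δ*ku70* and listed at 0 in all 3 Δ*rsrB* libraries. In Δ*rsrA* it was at 8.26, 8.01 and 7.28, below all Δ*ku70* values. POX01907 (*rsrA*) was at 22.9, 17.1 and 16.5 in Δ*ku70*, at 0.01, 0.01 and 0.04 in Δ*rsrA*, and at 24.2, 20.4 and 19.9 in Δ*rsrB*. In Δ*rsrA*, *rsrB* RNA was thus lower but not absent, while the limits on A were set by the rule. Whether the remaining *rsrB* RNA bears on A was not tested.

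Of the listed genes, 743 had B of at least 0.8. Among these, A was 0.5 or more in 256 and −0.5 or less in 113, and 374 lay between. Separation of the Δ*rsrB* from the Δ*ku70* values left 257, and the limit on the parental range left 238. The median B of the members was 1.00 (0.80 to 5.98), against 0.02 over all listed genes. Bulk mycelium was sequenced, so more cells that express a gene and more RNA per cell cannot be told apart. B was at least 1 in 120 members, at least 1.5 in 53, at least 2 in 33, at least 3 in 10 and at least 5 in 3. Most members therefore lay close to the limit that chose them.

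**Figure D1:**
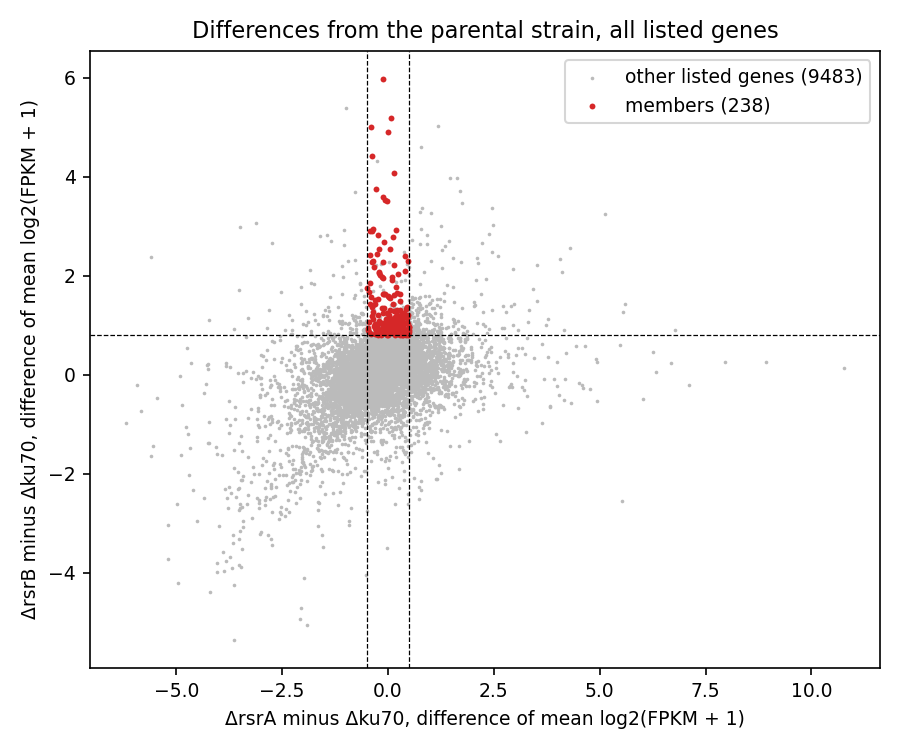
Each point is 1 of 9721 listed genes, placed by its difference from Δ*ku70* in Δ*rsrA* (horizontal axis) and in Δ*rsrB* (vertical axis), both as differences of mean log2(FPKM + 1). The 238 members are red, and dashed lines mark −0.5, 0.5 and 0.8. Members fill the strip above 0.8 densely up to about 1.5 and thin out to 5.98, while other genes with a high B lie to both sides.

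The members just inside and just outside the limits had like values. POX08365 had the smallest B of the members, 0.80, with FPKM values of 69.4, 61.2 and 85.5 in the parental libraries and 99.3, 134.8 and 146.0 in Δ*rsrB*. POX08782 followed, also at 0.80. POX04100 and POX06752 also had B values that round to 0.80 but lay just below the limit, and no other limit kept them out. On the side of A, POX01561 and POX07300 were the members nearest to 0.5, at 0.49 each, and POX06183 and POX05644 those nearest to −0.5, at −0.49 and −0.48. POX02503 and POX05335, at 0.50 each, fell just outside, as did POX08506 and POX04699 at −0.50 each. The Δ*ku70* range was 1.47 in POX00040 and 1.40 in POX03749 inside the limit, and 1.52 in POX07633 and 1.54 in POX03092 outside it.

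The members covered a wide range of parental levels. In 39 of them the mean Δ*ku70* FPKM was under 1, in 48 it was 1 to 10, in 126 it was 10 to 100, and in 25 it was 100 or more. The median B was 1.94 in the first class, 1.05 in the second, 0.97 in the third and 0.90 in the fourth. Among the 199 members with a parental mean of at least 1, the ratio of mean FPKM in Δ*rsrB* to that in Δ*ku70* had a median of 2.05 (1.69 to 36.0). The rule placed every Δ*rsrB* value of a member above every Δ*ku70* value, and the margin was not compared with all listed genes. In 60 of the 238 members the lowest Δ*rsrB* value was at least 2 times the highest Δ*ku70* value, and in 79 it was less than 1.2 times that value. The module therefore joined a few genes that went from near silence to clear expression with many that were moderately expressed and about doubled.

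Together the members took 1.10%, 1.11% and 1.47% of the total FPKM in Δ*ku70*, 1.24%, 1.40% and 1.46% in Δ*rsrA*, and 2.44%, 2.63% and 2.89% in Δ*rsrB*. Δ*ku70* replicate 3 thus reached the highest Δ*rsrA* share, and every Δ*rsrB* share lay above all others. The rule left no room for a 0 in a Δ*rsrB* library. Of the members, 11 were listed at 0 in at least 1 Δ*ku70* library and 18 in at least 1 Δ*rsrA* library. POX02210, POX08684 and POX09483 were listed at 0 in all 3 Δ*ku70* libraries. In Δ*rsrB* POX02210 was at 1.28, 2.26 and 2.89, POX08684 at 2.21, 1.37 and 1.61, and POX09483 at 1.30, 0.38 and 0.94, so all 3 stayed weakly expressed.

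The member with the largest B, POX08108, was at 0.07, 0.34 and 0.20 in Δ*ku70*, 0.07, 0.27 and 0 in Δ*rsrA*, and 81.1, 75.2 and 67.7 in Δ*rsrB* (B = 5.98). It was close to silent in both other strains and clearly expressed in all 3 Δ*rsrB* libraries. POX06595 differed in kind, since it was well expressed from the start. Its FPKM was 46.0, 51.4 and 81.4 in Δ*ku70*, 75.4, 64.8 and 47.0 in Δ*rsrA*, and 2439, 1912 and 2080 in Δ*rsrB* (B = 5.18). The Δ*rsrA* and Δ*ku70* values overlapped, and mean FPKM was 36.0 times the parental one in Δ*rsrB*, the highest such ratio among members with a parental mean of at least 1.

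POX05863 and POX05862 carry consecutive identifiers. POX05863 was at 0.76, 0.33 and 0.27 in Δ*ku70*, 0.11, 0.05 and 0.11 in Δ*rsrA*, and 58.2, 44.0 and 36.6 in Δ*rsrB* (B = 5.01). POX05862 was at 0.40, 0.07 and 0.47 in Δ*ku70*, 0.20, 0.41 and 0.33 in Δ*rsrA*, and 43.9, 41.9 and 30.2 in Δ*rsrB* (B = 4.91). In POX05863 every Δ*rsrA* value lay below every parental one, and in POX05862 these strains overlapped. POX09482 was at 1.76, 1.00 and 2.99 in Δ*ku70*, 1.34, 1.11 and 0.99 in Δ*rsrA*, and 43.1, 68.4 and 69.2 in Δ*rsrB* (B = 4.42). POX03844 was at 0.06, 0.12 and 0.06, at 0.18, 0.29 and 0.12, and at 23.2, 15.5 and 14.2 in the same order of strains (B = 4.08). Here all Δ*rsrA* values reached or exceeded the highest parental value, at a level far under that in Δ*rsrB*.

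The remaining 4 of the 10 members with the largest B had values between 3.51 and 3.74. POX09473 was at 1.70, 0.08 and 0.16 in Δ*ku70* and 19.3, 23.1 and 15.5 in Δ*rsrB* (B = 3.74), so its parental replicate 1 stood above the other parental libraries. POX08154 was at 2.48, 2.78 and 4.59 in Δ*ku70*, 1.55, 3.77 and 3.73 in Δ*rsrA*, and 46.5, 52.1 and 49.3 in Δ*rsrB* (B = 3.58). POX08107 was at 0.10, 0.14 and 0.12 in Δ*ku70* and 14.4, 12.03 and 9.79 in Δ*rsrB* (B = 3.53). POX08579 was at 2.19, 1.22 and 1.17 in Δ*ku70*, 1.52, 1.51 and 1.26 in Δ*rsrA*, and 27.4, 30.4 and 24.7 in Δ*rsrB* (B = 3.51). In each of these genes the Δ*rsrB* libraries lay well clear of all 6 others.

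**Figure D2:**
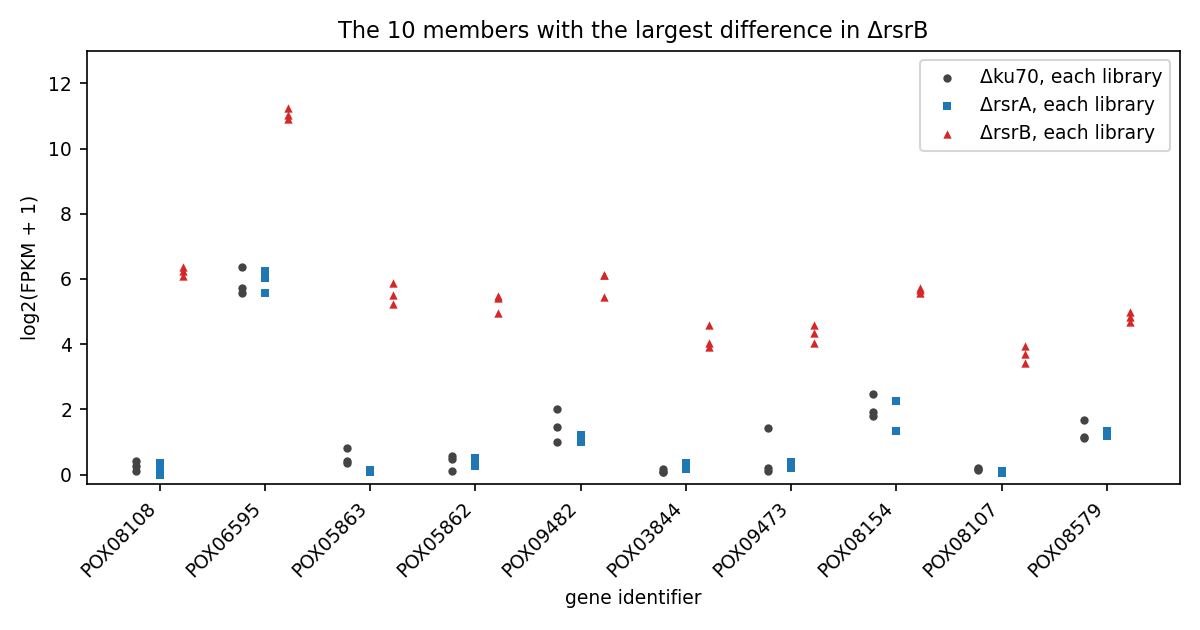
log2(FPKM + 1) of the 10 members with the largest B, by identifier, with 1 point per library and 3 libraries per strain. The Δ*rsrB* points lie apart from the others in every gene, and the Δ*ku70* and Δ*rsrA* points are mostly near 0 except in POX06595, POX08154, POX09482 and POX08579.

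POX06595 was also among the 5 members with the highest mean FPKM in Δ*rsrB*. The other 4 of these had B between 0.83 and 1.5. POX07201 had the highest mean in Δ*rsrB*, with 1441, 1294 and 1994 in Δ*ku70*, 1654, 2297 and 2384 in Δ*rsrA*, and 2225, 2972 and 3161 in Δ*rsrB* (B = 0.83, A = 0.43). Its Δ*rsrA* values overlapped both other strains. POX02008 was at 529, 1184 and 1237 in Δ*ku70*, 771, 766 and 708 in Δ*rsrA*, and 3170, 2421 and 2292 in Δ*rsrB* (B = 1.5). Its Δ*ku70* replicate 1 lay below all other libraries, and without that library the difference was 1.10. POX02470 was at 495, 859 and 959 in Δ*ku70*, 1029, 1051 and 938 in Δ*rsrA*, and 1285, 1338 and 1435 in Δ*rsrB* (B = 0.86), again with a low Δ*ku70* replicate 1. Without it, the difference was 0.57, under the limit of 0.8. POX05644 was at 249, 232 and 343 in Δ*ku70*, 202, 218 and 168 in Δ*rsrA*, and 515, 539 and 517 in Δ*rsrB* (B = 0.95), with all Δ*rsrA* values below all parental ones.

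limma on log2(FPKM + 1) was fitted to all genes whose FPKM averaged 1 or more in the 6 libraries of a comparison, and a gene was called at a Benjamini-Hochberg adjusted p under 0.05. Between Δ*rsrB* and Δ*ku70*, 67 of the 230 members tested were called higher in Δ*rsrB* and 0 lower, where 1.72% of all 8597 genes tested were called higher. Since the rule used this contrast, nothing is read from the count. Of the 53 tested members with B of at least 1.5, 45 were called, and of the 177 with a smaller B, 22 were. The 8 members under the filter were not tested. The other tested members did not reach the threshold, although the rule had required every Δ*rsrB* value to lie above every Δ*ku70* value. The number called was 173 with 1 fit over all 9 libraries, where 6.37% of all genes were called higher. When Δ*ku70* replicate 1, 2 or 3 was left out it was 97, 36 and 84, with 4.37%, 0.851% and 2.38% of all genes. When Δ*rsrB* replicate 1, 2 or 3 was left out it was 28, 25 and 29, with 0.650%, 0.523% and 0.628% of all genes. The calls over all genes thus moved with those of the members.

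Between Δ*rsrA* and Δ*ku70*, 1 of 197 members tested was called, and it was higher, against 38.7% of all 8550 genes in either direction and 9.74% higher. The rule required small differences here, so this too was set by the choice. The called member, POX03715, was higher in Δ*rsrA* by 0.43. A member that missed the threshold is not shown to be at its parental level. In 164 of the 197 the 95% interval of A lay between −1 and 1, its median width was 1.06, and the outermost bounds were −1.40 and 1.39. The values of the 2 strains overlapped in 204 of the 238 members. All Δ*rsrA* values were above all Δ*ku70* values in 13 members and below in 21, against 13.7% and 39.1% of all listed genes.

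The scaling of the libraries bears on how near to the parental level the members were in Δ*rsrA*. On the deposited values the median of A over all genes averaging an FPKM of 1 or more was −0.29, and the members' median was 0.09. Of the 238 members, 209 lay above the median of all genes. The rule held A between −0.5 and 0.5, a span mostly above −0.29, so this count was largely set by the choice. Scaling by the median of ratios moved the median of all genes to 0.01 and that of the members to 0.38, and 82 of the 238 members then had A of 0.5 or more. On these scaled values 38 members were called in Δ*rsrA*, all higher, where 17.8% of all genes tested were called higher, and quantile normalization gave 27 of 197, where 13.7% of all genes were called higher, a share equal to that of the members. Which scaling holds cannot be told from FPKM alone. With the median of ratios the median B was 0.97, and on TPM 0.93, and B fell under the limit of 0.8 in 25 and 57 of the 238 members, respectively.

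The mutants were also compared directly, again on values that the rule had used. All 3 Δ*rsrB* values were above all 3 Δ*rsrA* values in 192 of 238 members, against 46.2% of all listed genes. limma called 188 of the 229 members tested higher in Δ*rsrB* than in Δ*rsrA* and 0 lower, against 45.1% of all genes called higher. After scaling by the median of ratios the count was 123, against 23.8%. The comparisons of each mutant with Δ*ku70* share the same 3 parental libraries, so an error in those libraries would enter both.

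The low members were near 0 in both other strains on this scale, where a pseudocount of 1 compresses differences below an FPKM of 1. In 28 of the 39 members with a parental mean under 1, mean FPKM was lower in Δ*rsrA* than in Δ*ku70*. The median of A over all listed genes was −0.25, so this direction was not particular to them. In 10 of the 39 all 3 Δ*rsrA* values were below all 3 Δ*ku70* values, against 39.1% of all listed genes. With a pseudocount of 0.1, A was −0.5 or less in 21 of the 39 and 0.5 or more in 4, against 6 and 3 of the other 199 members. The other 14 stayed within the limit of 0.5 on that scale too.

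Members often carried neighbouring identifiers. Of the 234 members whose next number was listed, 33 (14.1%) were followed by another member, whereas 2.45% of listed genes are members. In all, 54 members (22.7%) fell into 21 runs of consecutive numbers, 17 of them pairs, 3 of length 3 and 1 of length 11. The longest run supplied 11 of these 54, and only 1 of its genes met the rule with a pseudocount of 0.1. Of the 39 members with a parental mean under 1, 19 were in a run, and of the other 199, 35 were. The genes of the longest run, except POX05859, are among those 19. Neighbouring numbers also resembled each other over all genes, with the members and their runs included. Across genes averaging an FPKM of 1 or more, B had a Spearman coefficient of 0.21 between identifiers 1 apart (7717 pairs), 0.11 at a distance of 2, 0.02 at 5 and 0.02 at 100. Whether numbers that follow each other are neighbours on a chromosome is not given in the sources used here, and the rule made no use of the numbers.

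The run of 11 went from POX05856 to POX05866. Its FPKM values lay between 0 and 1.73 in Δ*ku70*, between 0 and 0.61 in Δ*rsrA*, and between 0.67 and 58.2 in Δ*rsrB*. POX05862 and POX05863 led it. POX05858 was at 0.81, 0.47 and 0.34 in Δ*ku70*, 0.14, 0.27 and 0.13 in Δ*rsrA*, and 11.6, 14.0 and 6.99 in Δ*rsrB* (B = 2.91). POX05861 was at 0.97, 0.53 and 1.00, at 0.37, 0.48 and 0.25, and at 9.36, 10.1 and 7.01 in the same order (B = 2.42). POX05866, at 1.52, 0.07 and 0 in Δ*ku70* and 6.09, 6.09 and 5.15 in Δ*rsrB*, reached 2.28. The remaining 6, POX05856, POX05857, POX05859, POX05860, POX05864 and POX05865, had B between 0.96 and 2.07. POX05860 was the weakest of the run, at 0.07, 0.13 and 0 in Δ*ku70* and 1.33, 1.28 and 0.67 in Δ*rsrB*, and its A was exactly 0.

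Within the run the libraries of a strain kept a common order. Δ*rsrB* replicate 3 was the lowest Δ*rsrB* library in 10 of the 11 genes, and Δ*ku70* replicate 1 the highest parental library in 8. Mean FPKM was lower in Δ*rsrA* than in Δ*ku70* in 9 of the 11, where the median of A over all listed genes was also negative, at −0.25. All 11 genes remained members under rescaling to TPM, the median of ratios and quantile normalization, and between 8 and 11 did when single libraries were left out. With a pseudocount of 0.1 only 1 of the 11 met the rule, because A was −0.5 or less in 9 and the parental range exceeded 1.5 in 4, while B was 1.58 to 6.71. So the run was higher in Δ*rsrB* with either pseudocount, whereas 9 of its genes were within the limit on A only with a pseudocount of 1.

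The pattern continued on both sides of the run. Of the 22 identifiers from POX05850 to POX05871, all listed, 18 had B of at least 0.8 and 13 were members, POX05854 and POX05868 in addition to the run. The other 5, POX05850, POX05853, POX05855, POX05870 and POX05871, failed by A alone, being lower in Δ*rsrA*. POX05850 was at 2.80, 0.60 and 0.85 in Δ*ku70*, 0.35, 0.26 and 0.34 in Δ*rsrA*, and 37.8, 26.8 and 21.5 in Δ*rsrB*. POX05855 was at 1.09, 2.33 and 2.53, at 0.07, 0.28 and 0.07, and at 19.0, 20.2 and 14.7 in the same order. In 20 of the 22 mean FPKM was lower in Δ*rsrA* than in Δ*ku70*. Over all listed genes the median of A was −0.25, so a lower value in Δ*rsrA* was common on this scale. Genes that the rule separates at A of −0.5 thus carried neighbouring numbers here, mostly with Δ*rsrA* lowest and Δ*rsrB* highest. POX05851, POX05852, POX05867 and POX05869 had B of 0.09 to 0.61 and broke the series.

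**Figure D3:**
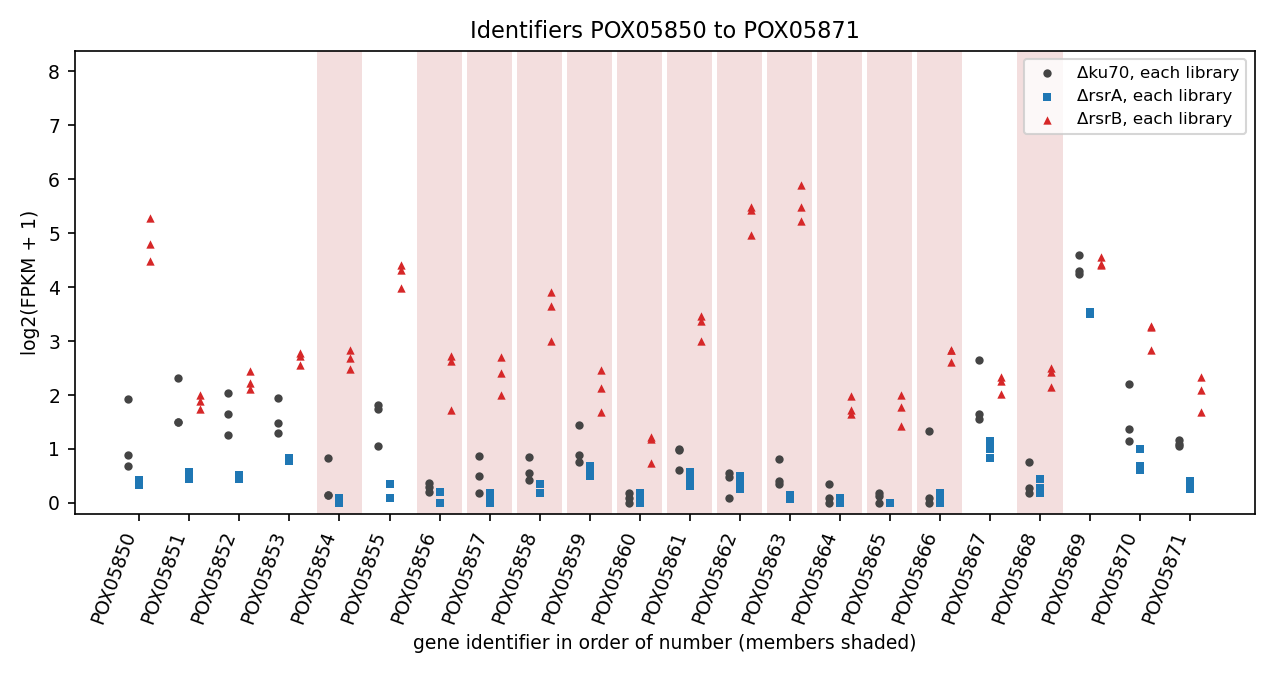
log2(FPKM + 1) of 22 genes with consecutive identifiers from POX05850 to POX05871, in order of number, with 1 point per library and 3 libraries per strain. Members are shaded. Δ*rsrB* lies above Δ*ku70* in nearly all of them, most in POX05863, POX05862 and POX05850, and Δ*rsrA* lies at or below Δ*ku70*.

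The run from POX08107 to POX08109 held the member with the largest B in its middle. POX08109 was at 1.12, 1.26 and 1.65 in Δ*ku70*, 0.94, 1.73 and 2.04 in Δ*rsrA*, and 18.2, 16.6 and 11.4 in Δ*rsrB* (B = 2.79). In all 3 genes Δ*rsrB* replicate 1 was highest and replicate 3 lowest. The identifiers before it, POX08103 to POX08106, were at 10.65 or more in every Δ*ku70* library and had B between −0.99 and 0.22, so the run began abruptly on that side.

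Another 3 members in a row were POX09472 to POX09474, with POX09469 and POX09470 just before them. POX09472 was at 4.32, 2.67 and 3.46 in Δ*ku70*, 4.13, 3.80 and 4.22 in Δ*rsrA*, and 39.5, 33.7 and 26.3 in Δ*rsrB* (B = 2.93). POX09470 was at 0.57, 0.24 and 0.82, at 0.05, 0.44 and 0.10, and at 9.92, 13.6 and 9.22 in the same order (B = 2.95), and POX09469 reached 5.63, 9.20 and 4.21 in Δ*rsrB* (B = 2.53). POX09474 stayed weak, with 0.83, 1.24 and 0.88 in Δ*rsrB* (B = 0.82). The identifier between the members, POX09471, differed from them in Δ*rsrA*, while its Δ*rsrB* values also lay above the parental ones (B = 0.60). It was at 0.66, 0.37 and 0.62 in Δ*ku70*, 61.6, 67.2 and 74.5 in Δ*rsrA*, and 1.70, 1.34 and 1.04 in Δ*rsrB*, so it was high in Δ*rsrA*, where its neighbours were low. This gene is not a member and is given because of its place among them. POX09482 and POX09483 followed at a distance of 8 and 9 numbers from the last of the run.

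**Figure D4:**
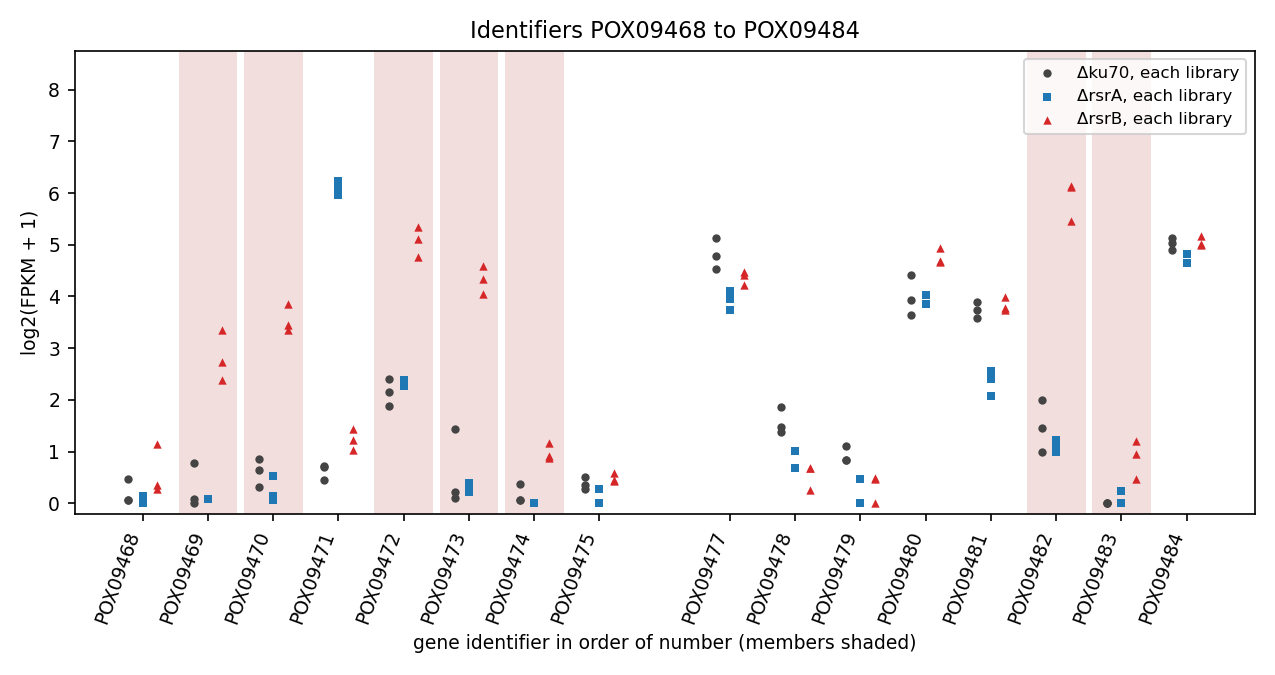
log2(FPKM + 1) of the listed genes from POX09468 to POX09484, in order of number, with 1 point per library and 3 libraries per strain (POX09476 is not shown because the lists do not hold it). Members are shaded. Δ*rsrB* lies above Δ*ku70* in all 7 members, weakly so in POX09474 and POX09483, and POX09471 between them is high in Δ*rsrA* only.

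The run from POX02448 to POX02450 was of the moderate kind. POX02448 was at 34.8, 22.1 and 21.6 in Δ*ku70*, 26.7, 26.5 and 24.0 in Δ*rsrA*, and 50.3, 45.9 and 44.2 in Δ*rsrB* (B = 0.85). POX02449 was at 6.50, 9.35 and 10.3, at 8.04, 11.8 and 12.1, and at 23.4, 13.3 and 23.6 in the same order (B = 1.10). POX02450 was at 12.2, 8.87 and 9.79, at 9.91, 11.2 and 11.6, and at 28.6, 21.2 and 21.5 (B = 1.13). The parental and Δ*rsrA* values overlapped in all 3 genes. Members 2 numbers apart also occurred. POX03631 and POX03633 enclosed POX03632, which had 3.35, 0.48 and 1.69 in Δ*ku70*, 0, 0.49 and 0.48 in Δ*rsrA*, and 113.8, 98.1 and 109.1 in Δ*rsrB*, and was kept out by A (−0.99) and by its parental range of 1.56. This gene and those of the 5 failing by A alone were singled out after their values had been seen.

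The members also differed in which library of a strain was highest. Δ*rsrB* replicate 3 gave the highest value in 142 of 238 members (59.7%), against 32.9% of all 8589 genes averaging an FPKM of 1 or more. The count was 136 after rescaling to TPM and 151 after the median of ratios, and over all genes the share was then 29.1% and 36.6%. The other strains had a like order. Δ*ku70* replicate 3 was highest in 137 members (57.6%, against 38.9% of all genes) and Δ*rsrA* replicate 3 in 109 (45.8%, against 30.3%). Of the 142 members, 103 (72.5%) were also highest in Δ*ku70* replicate 3 and 85 (59.9%) in Δ*rsrA* replicate 3. Over all genes highest in Δ*rsrB* replicate 3 these shares were 54.9% and 44.3%. In Δ*rsrB* the order differed with the level of the gene. With a parental mean of 10 to 100, replicate 3 was highest in 96 of 126 members, and with 100 or more in 19 of 25. With a parental mean under 1, it was highest in 6 of 39, and replicates 1 and 2 in 17 and 16. These 39 include the run POX05856 to POX05866 except POX05859, and replicate 3 was lowest in 10 of the 11 genes of that run. The order in this class thus leans on 1 stretch of identifiers, and level and stretch were not separated. The rule used these values, so the order describes the members and was not tested.

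**Figure D5:**
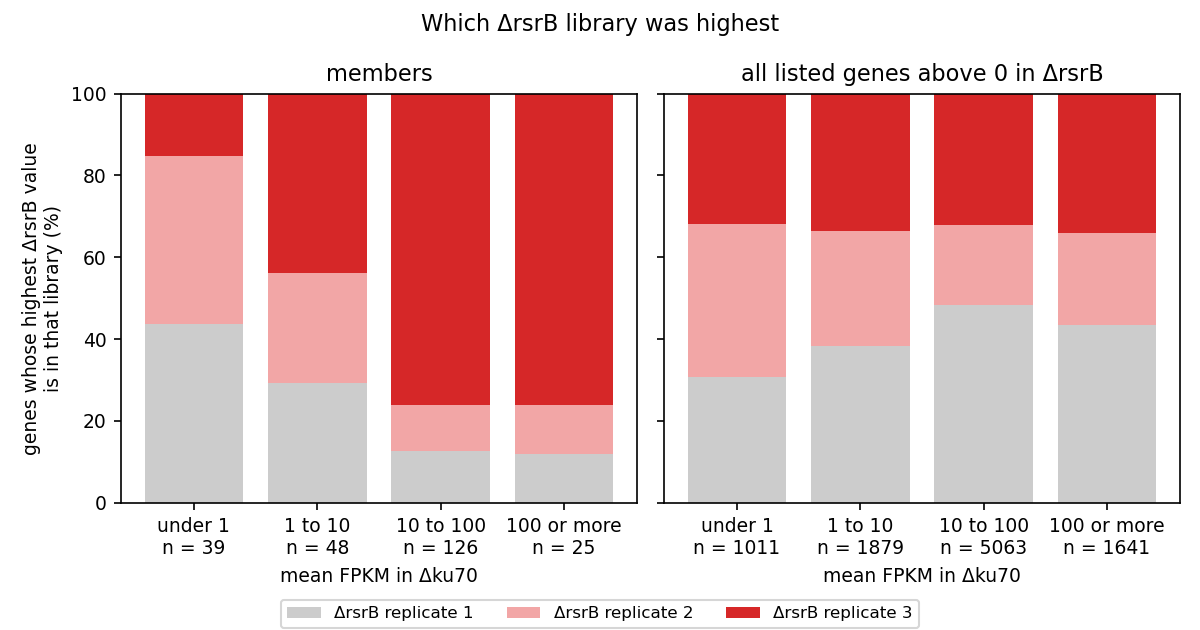
Share of genes (%) whose highest Δ*rsrB* value was in replicate 1, 2 or 3, by mean FPKM in Δ*ku70*, for the members (left) and for all listed genes above 0 in Δ*rsrB* (right). Replicate 3 leads in 76.2% of members at 10 to 100 FPKM and in 15.4% of those under 1, while its share over all genes stays between 31.9% and 34.0%. The members under 1 include the run POX05856 to POX05866 except POX05859.

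On the log2 scale, replicate 3 minus replicate 1 of Δ*rsrB* had a median of 0.40 in the members and −0.06 over all genes, and it was at least 1 in 45 members (18.9%), against 5.72% of all genes. In Δ*rsrA* the medians were 0.10 and −0.06, and in Δ*ku70* 0.22 and 0.10. Across the 238 members the difference in Δ*rsrB* went with that in Δ*rsrA* (Pearson r = 0.65, Spearman rho = 0.59) and less with that in Δ*ku70* (r = 0.14, rho = 0.17). Over all genes the first relation was r = 0.56 and rho = 0.38. These are descriptions across genes, which are not independent replicates, and all points share the same libraries.

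The order is shown by 3 members with a large difference between Δ*rsrB* replicates, chosen after their values had been seen. POX04312 was at 21.0, 22.3 and 26.7 in Δ*ku70*, 16.5, 28.9 and 41.8 in Δ*rsrA*, and 32.1, 77.8 and 171 in Δ*rsrB* in replicates 1, 2 and 3. POX02342 was at 23.7, 23.2 and 23.8, at 18.2, 30.7 and 43.9, and at 28.9, 64.4 and 114. POX01161 was at 33.0, 32.0 and 37.8, at 32.5, 49.2 and 65.5, and at 46.7, 86.5 and 176. In all 3 genes the spread within Δ*rsrB* exceeded the gap between its lowest value and Δ*ku70*, and the same library numbers were high and low in Δ*rsrA*. Membership moved with these libraries. Without Δ*rsrB* replicate 1 the rule gave 472 genes, 228 of them among the 238, and without replicate 3 it gave 173, of which 158 were among the 238. What sets these libraries apart was not tested.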

How the data were processed

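Per the labels, *P. oxalicum* mycelium was sequenced as poly(A) RNA in 9 libraries of 3 strains. The authors deposited FPKM values, 1 list of 9721 genes per library, rounded to hundredths. The submitters' processing notes name bcl2fastq and HISAT2, and the paper BWA, Bowtie2, RSEM and NOISeq. FPKM totals were 950456 to 1086112. FPKM are not counts, the read depth is unknown, and no counting error is given. Since FPKM are shares, a rise of strong genes lowers the rest.

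Values were analysed as log2(FPKM + 1), which understates changes of weak genes, with Python 3.11.15 and with limma 3.58.1 (lmFit, eBayes with trend) in R 4.3.3. Genes averaging an FPKM under 1 were not tested. The fit was also run on simulated data, with noise of the Δ*rsrB* spread in all strains and changes only in better expressed genes. That run does not cover weak genes or the larger Δ*ku70* spread (median SD 0.30, against 0.17 in Δ*rsrB*). The members and the rules were chosen with earlier results of these data known. Genes named are the deleted genes, the 10 members with the largest B, the 5 highest in Δ*rsrB*, those nearest the limits, and those in runs of 3 or more. The rule allowed 3 runs, and 4 are given because 3 tied in length. Any other gene was named after its values had been seen.

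Deviations of same-numbered libraries from their strain means correlated over 8589 genes with r = 0.58, 0.10 and 0.47 between Δ*rsrA* and Δ*rsrB*. This met the limit for pairing by values alone (0.1), although Δ*rsrA* replicate 2 correlated more with Δ*rsrB* replicate 3 (r = 0.25). Between Δ*ku70* and Δ*rsrB* r was 0.05, −0.17 and 0.26, and between Δ*ku70* and Δ*rsrA* −0.06, −0.06 and 0.09. Δ*ku70* replicate 1 correlated with the other parental libraries at 0.915 and 0.906, against 0.984 between those. No library repeated another. No functions, sequences or positions were used.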

Additional observations from a re-analysis of the deposited data

How the results depend on the processing

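The number of members under the rule was 162 to 240 with a pseudocount of 0.1, TPM, the median of ratios or quantile normalization, and 133 to 194 of the 238 were shared. Leaving out single libraries gave 173 to 472. Members called between Δ*rsrB* and Δ*ku70* numbered 67, against 148 of all 8597 genes called higher. With 1 fit over all 9 libraries it was 173, against 548, and with the replicate block 37, against 81. Without single libraries it was 25 to 97, against 45 of 8601 and 374 of 8565 genes. Between Δ*rsrA* and Δ*ku70* 1 was called, where 833 of all 8550 genes were called higher and 2477 lower. With TPM it was 0, against 804 higher and 2657 lower. The median of ratios gave 38, against 1521 and 1253, and quantile normalization 27, against 1170 and 1086. Without the filter it was 2 (both lower), against 827 and 2513 of 9666 genes. With 1 fit over all 9 libraries it was 7, against 1049 and 2956. The replicate block gave 0, against 578 and 1648, and leaving out single libraries 0 to 24. It was 12 without Δ*ku70* replicate 1, against 1121 higher and 3432 lower of 8499 genes. Without Δ*ku70* replicate 3 it was 24, against 925 and 2128 of 8520. By limma with 0 called, 9 of 197 members had an unadjusted p under 0.05 on TPM, against 4412 of all 8550 genes. With the block it was 7, against 3830. Without Δ*rsrA* replicate 1, 2 or 3 it was 18, 2 and 4 of 198 members. Over all genes it was then 3632 and 3217 of 8574 and 3401 of 8576. Between Δ*rsrB* and Δ*rsrA* 188 were called, where 3829 of all 8491 genes were called higher. With the median of ratios it was 123, against 2017, and with the replicate block 226, against 4394. Without single libraries it was 148 to 222, against 3008 of 8460 and 3895 of 8473 genes. In these 3 comparisons only the libraries of the mutants met the limit for pairing by number, with r = 0.10 in replicate 2. That rests on values alone, and whether the cultures were handled in pairs is not known. With Δ*ku70* the limit was not met. In the 36 named genes with a fit, 493 alternative values of the difference in Δ*rsrB* against Δ*ku70* were computed, of which 35 lost and 15 gained the call and 0 reversed. For these moves the cause was not tested. Weak genes limit the precision, since the depth behind an FPKM under 1 is unknown.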
